A study of Mus musculus with 6 samples.

Results

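Metallothioneins and the transporters that move zinc across membranes were examined in whole mouse liver as 8 genes, *Mt1*, *Mt2*, *Mtf1*, *Slc39a4*, *Slc39a8*, *Slc39a14*, *Slc30a1* and *Slc30a10*. They were chosen by name from a table of 55254 genes, each had 1 row, and all 8 passed the filter on low values that left 14730 genes to test. Their levels were compared between 3 livers of mice that ate normal diet (ND) and 3 of mice that ate CDA-HFD for 7 weeks, a high-fat diet without choline and with amino acids in place of protein, used to bring on steatohepatitis (MASH) and then fibrosis. All 6 mice were WT by their labels, which call the libraries biological replicates. The tissue is given as liver, but the extraction text of the labels mentions cells that had been sorted. The methods of the study name C57BL/6J as the wild type it bought and, for the diet, males of an age range spanning several weeks in young mice, and tie no age or strain to a single library. They state the choline, methionine and fat of the diet, and no zinc, copper or manganese content was found for either diet in the sources used here.

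Metallothioneins are small proteins rich in cysteine that bind zinc and copper and buffer the free metal inside the cell. In mouse liver their genes are switched on by zinc, cadmium, glucocorticoids and inflammatory cytokines. Zinc acts through MTF-1, the zinc-sensing transcription factor encoded by *Mtf1*, which binds metal response elements in the promoters of *Mt1*, *Mt2* and the exporter gene *Slc30a1*. ZIP proteins (the Slc39 family) carry metal into the cytosol, and ZnT proteins (the Slc30 family) carry it out of the cytosol, either out of the cell or into organelles. Some members handle manganese as well, and in mice hepatocytes take manganese from blood with ZIP14, recover it from bile with ZIP8, and pass it into bile with ZnT10, a member of the ZnT family that exports manganese.

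The promoters of the metallothionein genes and of the 2 exporter genes are shown because they hold matches to the core of the element that zinc-bound MTF-1 reads. Each window runs from 250 bases before to 50 bases after the RefSeq start site on GRCm38.p6. All 4 genes lie on the plus strand. Capitals mark the core of the metal response element, TGCACNC or TGCGCNC, on either strand.
*Mt1*, chr8:94178839-94179138: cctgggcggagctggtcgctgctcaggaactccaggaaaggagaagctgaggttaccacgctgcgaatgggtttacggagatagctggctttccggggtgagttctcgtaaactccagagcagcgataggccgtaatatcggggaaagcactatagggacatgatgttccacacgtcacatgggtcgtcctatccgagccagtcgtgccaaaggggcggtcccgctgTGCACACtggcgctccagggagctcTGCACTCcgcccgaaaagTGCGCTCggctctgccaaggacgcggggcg
*Mt2*, chr8:94172368-94172667: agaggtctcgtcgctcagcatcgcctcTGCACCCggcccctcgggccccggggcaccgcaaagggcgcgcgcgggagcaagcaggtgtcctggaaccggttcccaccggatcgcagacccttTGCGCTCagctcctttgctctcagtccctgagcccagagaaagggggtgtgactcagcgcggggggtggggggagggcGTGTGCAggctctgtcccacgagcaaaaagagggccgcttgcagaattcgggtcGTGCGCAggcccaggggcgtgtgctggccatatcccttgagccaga
*Slc30a1*, chr1:191906531-191906830: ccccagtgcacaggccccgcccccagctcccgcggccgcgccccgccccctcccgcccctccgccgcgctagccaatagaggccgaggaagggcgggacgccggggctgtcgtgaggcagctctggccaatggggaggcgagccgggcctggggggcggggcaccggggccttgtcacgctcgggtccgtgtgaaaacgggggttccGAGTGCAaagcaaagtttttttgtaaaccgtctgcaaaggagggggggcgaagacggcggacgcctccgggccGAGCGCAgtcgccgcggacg
*Slc30a10*, chr1:185454598-185454897: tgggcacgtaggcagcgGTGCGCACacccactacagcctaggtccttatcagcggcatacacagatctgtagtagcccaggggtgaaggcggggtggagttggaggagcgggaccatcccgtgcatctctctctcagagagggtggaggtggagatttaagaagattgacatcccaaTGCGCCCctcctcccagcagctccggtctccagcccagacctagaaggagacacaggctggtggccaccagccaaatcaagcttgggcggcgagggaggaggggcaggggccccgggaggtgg
The *Mt1* window held 3 matches, the *Mt2* window 4, the *Slc30a1* window 2 and the *Slc30a10* window 3, of which 2 were the same bases read on opposite strands, shifted by a base. Of 32851 mouse promoter windows of this length, 25.7% held at least 1 match, 7.11% at least 2, 1.97% at least 3 and 0.517% at least 4. The *Mtf1* window held 0 matches, and of the 2 windows of *Slc39a8* the upstream held 0 and the other 1. The tables matched 6 of the 8 genes, and *Slc39a4* and *Slc39a14* were not among them. In the *Mt1* window the matches begin 23 bases before and 2 and 20 bases after the start site used. Bases outside the windows were not searched, so these counts need not cover a whole promoter. A match is a run of letters and was not tested as a binding site.

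Reads recovered from the TPM values (levels corrected for gene length, with the same sum in every library) came to 13957519 to 15096491 per ND library and 16560805 to 18620253 per CDA-HFD library, and genes above 0 numbered 19793 to 20100 against 22267 to 22731. The hepatocyte markers, led by *Alb*, were present at a summed 33270 to 33765 TPM in ND and 26802 to 29304 TPM in CDA-HFD, with 0 of 7 tested markers called in either direction. Markers of other cells were higher in CDA-HFD, with 7 of 8 macrophage markers risen (summed 500.3 to 577 TPM against 4906 to 5271 TPM), 6 of 8 stellate cell markers (377 to 413 against 1665 to 1778), 6 of 8 cholangiocyte markers (159 to 170.2 against 1243 to 1378), 4 of 5 T cell markers (6.41 to 8.88 against 27.2 to 34.1) and 4 of 4 tested neutrophil markers (16.9 to 25.5 against 95.4 to 152). Most of the cholangiocyte sum on CDA-HFD came from *Spp1*, with a mean of 1043 TPM there against 73.4 TPM on ND. The study counts *Spp1* among its markers of scar-associated macrophages, so this sum is not specific to cholangiocytes. How much of it came from either cell type was not tested. Of 8 endothelial markers 1 rose and 1 fell, at a summed 222 to 241 TPM against 193 to 237 TPM. These marker counts follow the rule given below and were taken without scaling beyond TPM. By that rule 21.1% of all tested genes rose and 3.79% fell. Of the listed markers *Tf*, for hepatocytes, had no values in the data. None of the rest was at 0 in all libraries, and the neutrophil marker *Ly6g*, too low to test, was at 0 in the ND libraries. In whole tissue, fewer cells of a type and less RNA per cell cannot be told apart, and what these shifts in cell markers contribute to the values below was not tested.

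In the livers on CDA-HFD, the 2 metallothionein genes of the liver rose and the gene of the manganese exporter fell. *Mt1* rose about 10-fold from a modest level to the highest of the 8 genes, *Mt2* rose from a very low level, and *Slc30a10* fell to a few TPM. The gene of the sensor, *Mtf1*, and the classical zinc exporter gene *Slc30a1* passed no threshold. Log2 fold changes set CDA-HFD against ND on log2(TPM + 1) and are given ± SE, with p-values from limma adjusted by Benjamini-Hochberg over all tested genes. The words rose and fell are kept for genes with an adjusted p under 0.05 whose log2 fold change reached 1 in size. By this rule 2 of the 8 genes rose and 1 fell, where 21.1% of all tested genes rose and 3.79% fell. With median-of-ratios scaling 2 of the 8 rose and 2 fell, against 15.6% and 7.01% of all genes, and with quantile normalization 1 rose and 2 fell, against 11.7% and 8.15%. An adjusted p below 0.05 at any fold was reached by 5 of 8, against 66% of all genes, and the groups did not overlap for 5 of 8, against 71%. As shares, the rises and the 2 wider counts lie near or below those of all genes, so the results are those of the single genes. The median log2 fold change was 0.20 over the 8 genes and 0.32 over all tested genes.

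**Figure D1:**
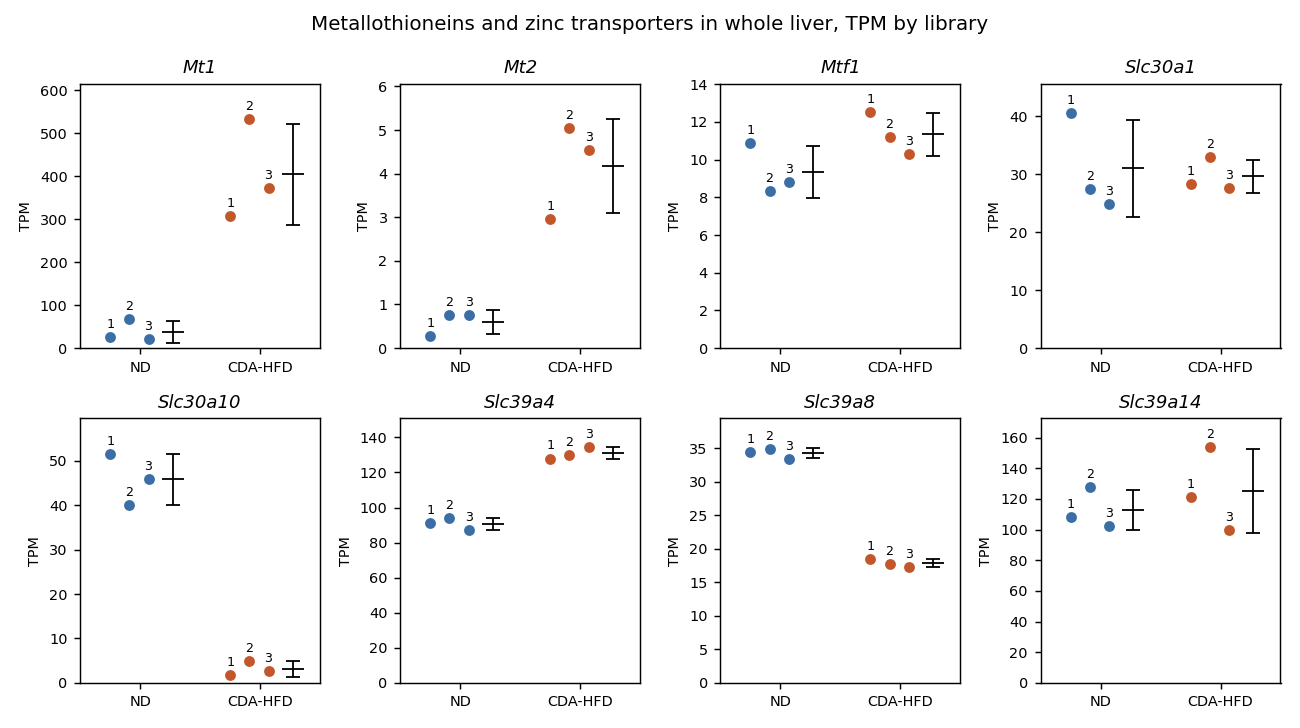
Level of each of the 8 genes in TPM (y axis, from 0) in the 3 ND and 3 CDA-HFD libraries (x axis). Points are libraries with their replicate number, and the bar beside them is the mean ± SD. For *Mt1*, *Mt2*, *Slc39a4*, *Slc39a8* and *Slc30a10* the groups do not overlap, and *Slc30a10* drops from 40.0 to 51.6 TPM to 1.70 to 5.0 TPM.

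*Mt1* (ENSMUSG00000031765.8, chromosome 8, 94179082 to 94180327, plus strand, GRCm38) encodes the more abundant of these metallothioneins here. In ND livers 1, 2 and 3 it stood at 24.7, 67.9 and 22.0 TPM. In CDA-HFD livers 1, 2 and 3 it stood at 307, 533 and 371 TPM. The ND livers varied about 3-fold among themselves, with replicate 2 highest, and even the lowest CDA-HFD liver lay more than 4-fold above it. The mean was 404 ± 117 TPM (SD, n = 3) in CDA-HFD and 38.2 ± 25.7 TPM (SD, n = 3) in ND, a ratio of 10.6. The log2 fold change was 3.52 ± 0.40 (limma, adjusted p = 0.000118), the 161st largest rise of the 14730 genes. These levels rest on 190, 564 and 185 reads in ND and 2855, 4709 and 3813 reads in CDA-HFD, and the ratio of pooled reads, corrected for depth, was 10.4 with an exact 95% interval of 9.74 to 11.1 that covers counting error only. In the order of all genes by mean level, *Mt1* moved from place 3699 in ND to place 426 in CDA-HFD.

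*Mt2* (ENSMUSG00000031762.7, chromosome 8, 94172664 to 94173568, plus strand) is the neighbour of *Mt1* and encodes a metallothionein of nearly the same build. It was listed at 0.276, 0.765 and 0.756 TPM in the ND livers and at 2.96, 5.04 and 4.54 TPM in the CDA-HFD livers. Every CDA-HFD liver lay above every ND liver, and replicate 2 was again highest on both diets. The means were 0.599 ± 0.280 TPM and 4.18 ± 1.08 TPM (SD, n = 3 each), and *Mt2* rose by 1.69 ± 0.21 on the log2 scale (limma, adjusted p = 0.000188). So few reads lie behind these levels, 1, 3 and 3 in ND and 13, 21 and 22 in CDA-HFD, that the ratio of pooled reads was 6.87 with an exact 95% interval from 3.13 to 17.9. At this level the size depends on the pseudocount, and log2 fold changes of 2.68 with a pseudocount of 0.1 and 2.54 with voom on the reads stood beside the 1.69. With quantile normalization *Mt2* stayed under the fold limit, at 0.96.

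The *Mt2* count is also limited by the annotation. Of its 588 exon bases, 432 (73.5%) are shared with *Gm45774*, a gene on the opposite strand, and the 156 unshared bases form 1 block at the 3′ end, 749 to 904 bases from the *Mt2* start. The sources do not say if the counting was stranded, and reads over the shared bases may have gone to either gene or been dropped. *Gm45774*, looked up after its values were seen, held 0, 0 and 2 reads in ND and 1, 5 and 13 in CDA-HFD. *Mt1* shares no exon bases with another gene, but its merged exons span 1246 bases where its main transcript has 549, so its TPM understates the level of that transcript if most reads come from it.

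**Figure D2:**
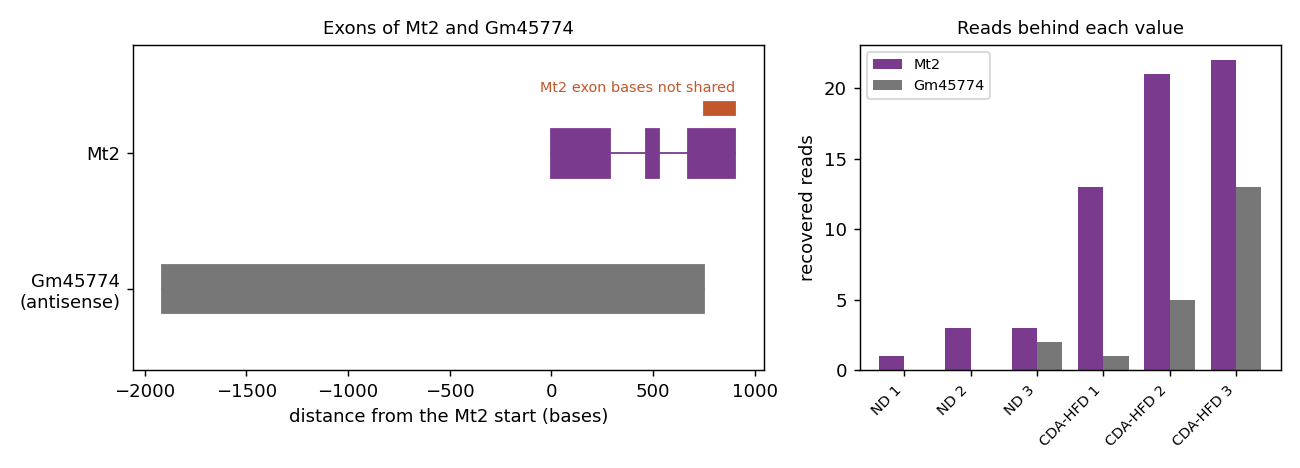
Left, exons of *Mt2* and of the antisense gene *Gm45774* by distance from the *Mt2* start in bases (x axis), with the 156 *Mt2* exon bases that are not shared marked above. Right, recovered reads per library (y axis) for both genes: *Mt2* has 1 to 3 reads in ND and 13 to 22 in CDA-HFD.

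Summed over both genes, metallothionein RNA came to 38.8 ± 25.9 TPM on ND against 408 ± 117 TPM on CDA-HFD (SD, n = 3 each), a ratio of 10.5 (two-sided exact permutation test, p = 0.1, the smallest that 3 against 3 can give). *Mt1* exceeded *Mt2* 89.7, 88.7 and 29.1 times in the ND livers and 104, 106 and 81.8 times in the CDA-HFD livers, so the ratios overlapped (exact permutation test, p = 0.3). With *Mt1* set over its 549-base transcript and *Mt2* over its unshared bases, a choice made after seeing the data, the ratio was 41.6 ± 20.9 and 58.5 ± 8.0 (SD, n = 3 each). The other members of the family are genes of brain and of stratified epithelium. *Mt3* had 0 reads in each of the 3 ND livers and 4, 6 and 4 in the livers on CDA-HFD, at least 4.01-fold higher against a floor of 3 reads over the group. With the counting error of the 14 reads included, the exact 95% interval of the ratio began at 2.85. *Mt4* had 0 reads against 2 in all, and neither gene passed the filter.

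*Mtf1* (ENSMUSG00000028890.13, chromosome 4, 124802104 to 124849800, plus strand) was at 10.9, 8.31 and 8.79 TPM in ND and 12.5, 11.2 and 10.3 TPM in CDA-HFD. The groups overlapped, since ND replicate 1 lay above CDA-HFD replicate 3. Its log2 fold change of 0.26 ± 0.12 (limma, adjusted p = 0.095) turned to −0.11 with median-of-ratios scaling and to −0.33 with quantile normalization, where the adjusted p was 0.0212. In the other direction the adjusted p was 0.0264 without ND replicate 1, at a log2 fold change of 0.37, and 0.0467 with a replicate block, at 0.26. Among 4 tested genes other than these 8 that are known MTF-1 targets, 1 rose and 0 fell, with a median log2 fold change of 0.56 beside the 0.32 of all tested genes, of which 21.1% rose. *Slc39a10* (0.79), *Selenow* (0.34) and *Ndrg1* (0.22) stayed under the fold limit. The list was not split into targets that MTF-1 raises and targets that it lowers, and MTF-1 activity was not tested. One of the 4, *Slc39a10*, is also counted among the importers below. The gene that rose was *Csrp1*, a LIM domain protein of smooth muscle and stellate cells (2.01 ± 0.07, limma).

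*Slc30a10* (ENSMUSG00000026614.6, chromosome 1, 185454848 to 185468762, plus strand) encodes ZnT10, which exports manganese, in hepatocytes into bile. It was at 51.6, 40.0 and 45.8 TPM in the ND livers and at 1.70, 5.0 and 2.64 TPM in the CDA-HFD livers. The lowest ND liver was 8 times the highest CDA-HFD liver, and within CDA-HFD the livers varied about 3-fold, with replicate 2 highest. The mean fell from 45.8 ± 5.79 to 3.11 ± 1.70 TPM (SD, n = 3 each), 14.7-fold lower. The log2 fold change was −3.58 ± 0.26 (limma, adjusted p = 9.85e-06), the 44th largest fall of the 14730 genes. The reads numbered 5221 over ND and 74, 207 and 127 in the CDA-HFD libraries, which gives a level 14.9-fold lower by pooled reads (exact 95% interval 13.5 to 16.5, counting error only). Of its 5836 exon bases, 533 (9.13%) are shared with the antisense gene *Gm2061*. The hepatocyte markers in the same livers had a median log2 fold change of −0.29 beside 0.32 over all tested genes, with 0 of 7 past the fold limit. Of the 7, 3 had an adjusted p below 0.05 (limma), all of them lower: *Ttr* (−0.71), *Serpina1a* (−0.45) and *Alb* (−0.30). The part of hepatocyte RNA in the *Slc30a10* level was not tested.

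*Slc30a1* (ENSMUSG00000037434.7, chromosome 1, 191906767 to 191913247, plus strand) encodes ZnT1, the exporter of the plasma membrane and a textbook target of MTF-1. It was at 40.6, 27.5 and 24.9 TPM in ND and 28.3, 32.9 and 27.6 TPM in CDA-HFD. All 3 CDA-HFD livers lay inside the ND range, and the log2 fold change was −0.04 ± 0.17 (limma, adjusted p = 0.859). The sign turned without ND replicate 1, at 0.17, and without CDA-HFD replicate 3, at 0.0092. Both scalings gave lower values, −0.42 with median-of-ratios scaling (limma, adjusted p = 0.0512) and −0.40 with quantile normalization (limma, adjusted p = 0.0584). The promoter windows of *Mt1*, *Mt2*, *Slc30a1* and *Slc30a10* all held at least 1 match to the core motif, as did 25.7% of all mouse promoter windows. By the test 2 of these genes rose, 1 passed no threshold and 1 fell. The part of MTF-1 in these levels was not tested.

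The other 8 ZnT genes include the transporters that load zinc into the secretory pathway. Of the 5 that were tested, 0 rose and 0 fell, and 0 had an adjusted p below 0.05 with limma, with a median log2 fold change of −0.08. The most abundant was *Slc30a5*, whose product supplies zinc to secreted enzymes, with mean levels of 57.9 TPM (ND) and 51.0 TPM (CDA-HFD). Over the other settings its log2 fold change ran from −0.56 to −0.07, with adjusted p-values (limma) from 0.00497 to 0.596. Summed over these 8 genes, without scaling beyond TPM, the levels overlapped, at 128 to 152 TPM in ND and 129 to 137 TPM in CDA-HFD. Median-of-ratios scaling divides by 0.85 to 0.89 in ND and by 1.12 to 1.19 in CDA-HFD. That lowers the CDA-HFD sums against those of ND, so the overlap is not settled. Over all 10 ZnT genes the sum was 218 ± 6.72 TPM on ND against 167 ± 7.26 TPM on CDA-HFD (SD, n = 3 each), and the libraries of the groups did not overlap.

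Among the importers, *Slc39a8* (ENSMUSG00000053897.15, chromosome 3, 135825279 to 135888572, plus strand) encodes ZIP8, which takes up zinc, manganese and other metals. It was at 34.5, 34.9 and 33.4 TPM in ND and at 18.5, 17.8 and 17.3 TPM in CDA-HFD. The livers of a diet differed by little and the diets by far more, with means of 34.3 ± 0.751 and 17.9 ± 0.621 TPM (SD, n = 3 each), a ratio of ND to CDA-HFD of 1.92. The log2 fold change of −0.90 ± 0.07 had an adjusted p of 1.15e-05 (limma) but stayed short of the fold limit. It passed the limit under median-of-ratios scaling (−1.29) and under quantile normalization (−1.31), where *Slc39a8* is the additional fall.

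*Slc39a4* (ENSMUSG00000063354.7, chromosome 15, 76612383 to 76617384, minus strand) encodes ZIP4, best known for zinc uptake from the diet in the intestine. It was at 91.3, 94.0 and 87.0 TPM in ND and 128, 130.1 and 135 TPM in CDA-HFD. The CDA-HFD livers were all above the ND livers, and the means of 90.8 ± 3.52 and 131 ± 3.47 TPM (SD, n = 3 each) stood in a ratio of 1.44. The log2 fold change of 0.52 ± 0.06 (limma, adjusted p = 9.37e-05) was under the fold limit, and with median-of-ratios scaling it was 0.13 with an adjusted p of 0.132. *Slc39a14* (ENSMUSG00000022094.15, chromosome 14, 70303469 to 70351425, minus strand) encodes ZIP14, the hepatocyte importer of zinc, iron and manganese that interleukin-6 induces in mouse liver. It was at 108, 128 and 102 TPM in ND and 121, 154 and 99.9 TPM in CDA-HFD. The groups overlapped, since CDA-HFD replicate 3 was the lowest of the 6 livers, and the log2 fold change was 0.13 ± 0.15 (limma, adjusted p = 0.474). It was −0.27 with median-of-ratios scaling and −0.029 without CDA-HFD replicate 2.

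Of the 3 genes that handle manganese at the hepatocyte, the importer from blood, *Slc39a14*, thus passed no threshold, *Slc39a8* was lower by a ratio of 1.92 without reaching the fold limit, and the exporter, *Slc30a10*, fell. Of 9 other ZIP genes tested, 3 rose and 0 fell, with a median log2 fold change of 0.79 against 0.32 over all genes, of which 21.1% rose. *Slc39a3* rose by 1.11 ± 0.13, from 5.71 to 8.13 TPM in ND to 16.4 to 16.8 TPM in CDA-HFD. *Slc39a5*, an importer of the basolateral membrane in gut and pancreas, rose by 1.07 ± 0.15, and *Slc39a13*, an importer of the early secretory pathway needed in connective tissue, rose by 1.06 ± 0.10. All 3 lay just past the fold limit, and *Slc39a3* missed it without ND replicate 1 (0.98) and *Slc39a5* without CDA-HFD replicate 1 (0.96). With median-of-ratios scaling 0 of the 9 rose, and with quantile normalization 0 rose and 1 fell. Over all 14 ZIP genes the summed level was 472 ± 21.7 TPM on ND against 583 ± 32.8 TPM on CDA-HFD (SD, n = 3 each). This sum was taken without scaling beyond TPM. Median-of-ratios scaling divides by 0.85 to 0.89 in ND and by 1.12 to 1.19 in CDA-HFD, so the direction of the sum is not settled.

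**Figure D3:**
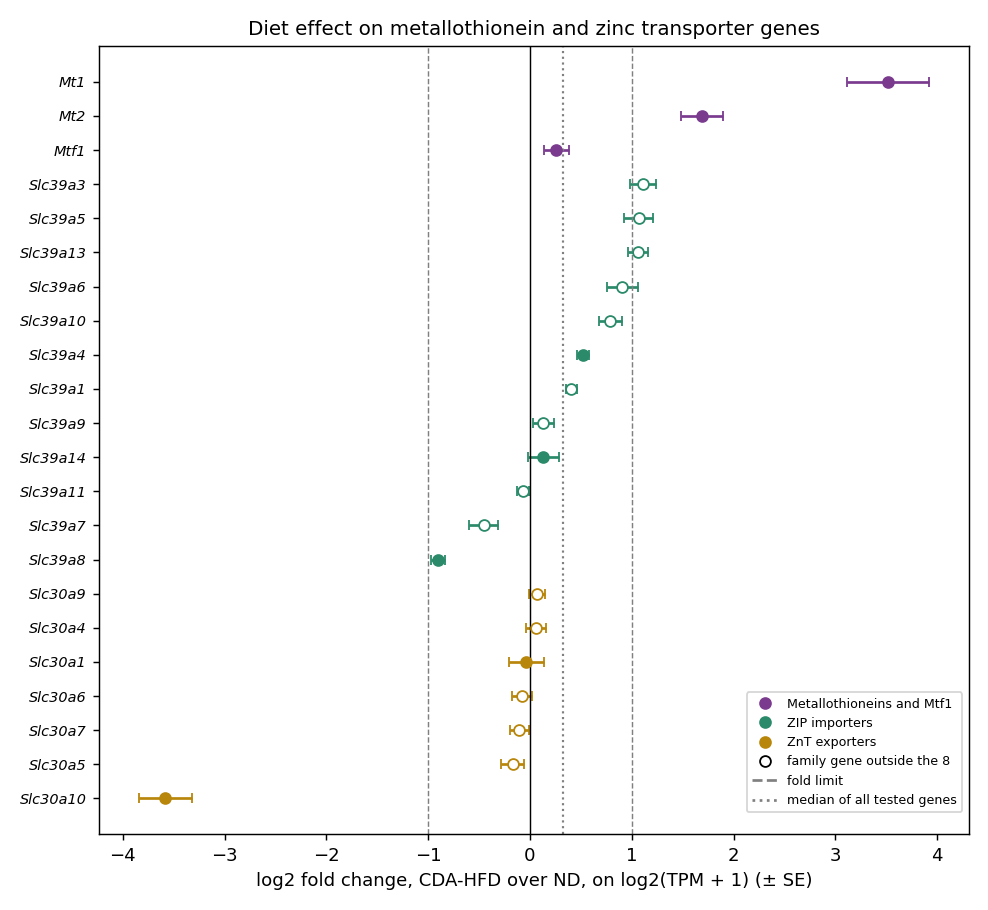
Difference between the diets as log2 fold change ± SE on log2(TPM + 1), with CDA-HFD above ND to the right (x axis), for the tested metallothionein, ZIP and ZnT genes (y axis). Filled points are the 8 genes described, open points other genes of the families, dashed lines the fold limit and the dotted line the median of all tested genes at 0.32. *Mt1* at 3.52 and *Slc30a10* at −3.58 lie farthest from 0.

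Within ND, the order of levels in TPM by mean ran from *Slc39a14* and *Slc39a4* over *Slc30a10*, *Mt1*, *Slc39a8* and *Slc30a1* to *Mtf1* and last *Mt2*. The ranges of neighbours overlapped for *Slc30a10* and *Mt1*, *Mt1* and *Slc39a8*, and *Slc39a8* and *Slc30a1*. Within CDA-HFD, *Mt1* led, followed by *Slc39a4* and *Slc39a14*, whose ranges overlapped, then *Slc30a1*, *Slc39a8*, *Mtf1*, *Mt2* and *Slc30a10*, the last pair again overlapping. Replicate 2 was the highest library for 5 of the 8 genes in each group, and for *Mt1*, *Mt2* and *Slc39a14* in both.

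The genes whose levels followed *Mt1* most closely over the 6 libraries were *Sult1d1* (Pearson r = 0.999 on log2(TPM + 1)), *St7* (0.998), *Bbc3*, which encodes the cell death protein PUMA (0.997), *Mat1a*, the methionine adenosyltransferase of hepatocytes (0.997), and *Gstm2* (0.997). For *Mt2*, leaving out a predicted gene without a proper symbol in the fifth place, they were *Col28a1*, *Reep4*, *Pef1* and *Wfdc17* (0.998 each) and *Arg2*, a mitochondrial arginase (0.997). *Mt1* and *Mt2* correlated with each other at 0.961, place 1215 in the order for *Mt1*. These values describe 6 libraries of 2 diets, so any gene that differs between the diets shares most of this pattern. Those of *Mt2* also rest on 1 to 3 reads per ND library and 13 to 22 per CDA-HFD library. Counting error therefore bears on which genes came closest to *Mt2*.

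Other genes of metal handling and use were counted beside all tested genes, of which 21.1% rose and 3.79% fell, with a median log2 fold change of 0.32. Of 9 tested genes of copper handling 2 rose and 0 fell, *Atp7a*, a copper-exporting ATPase (1.13 ± 0.22), and *Steap4*, a metalloreductase (1.05 ± 0.22), with a median of 0.49, a share of rises close to that of all genes. Both were just past the limit, and *Atp7a* missed it without CDA-HFD replicate 1 (0.92) and *Steap4* without ND replicate 1 (0.79) or CDA-HFD replicate 2 (0.92). With median-of-ratios scaling 0 of the 9 rose and 1 fell, and with quantile normalization 1 rose. Of 15 zinc enzymes 3 rose and 5 fell, with a median of −0.44. *Alpl*, the tissue-nonspecific alkaline phosphatase, rose by 2.00 ± 0.11, and *Sod3*, the extracellular superoxide dismutase, rose by 1.59 ± 0.10 on the log2 scale. The largest falls were those of 2 carbonic anhydrases, *Car1* (−3.64 ± 0.15), best known from red blood cells, and the abundant *Car3* (−3.56 ± 0.08), which went from 3386 to 288 TPM.

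Because glucocorticoids, cytokines and oxidants induce metallothionein genes in mice, genes known to answer each were listed beside *Mt1* and *Mt2*, to be read against the same shares of all genes. Of 10 genes of the glucocorticoid response 4 rose and 0 fell, led by *Zbtb16* (2.34 ± 0.20) and *Fkbp5* (2.02 ± 0.09), with a median of 0.06. *Hsd11b1* (−0.99) and *Nr3c1* (−0.41) were lower but under the fold limit in size (limma, adjusted p = 2.66e-06 and 0.00425). *Tat*, *Pck1*, *Dusp1* and *Tsc22d3* passed no threshold. Of 11 tested genes of the interleukin-6 and acute phase response 6 rose and 0 fell, led by *Lcn2* (5.28 ± 0.24) and *Saa3* (2.71 ± 0.14), with a median of 1.02. *Orm1* was lower (−0.43, limma, adjusted p = 0.00536) and *Hp* (0.51) and *Il6st* (0.40) higher, all under the fold limit. *Saa1* (0.30) and *Stat3* (0.19) passed no threshold. *Il6* itself, too low to test, had 1 read over ND and 2 over CDA-HFD. Of 10 genes of the NRF2 response 5 rose and 1 fell, with a median of 0.88. *Hmox1*, heme oxygenase 1, rose by 2.93 ± 0.07, while *Gclc*, the catalytic subunit for glutathione synthesis, fell by 1.49 ± 0.09 on the log2 scale. With median-of-ratios scaling 3 genes of the glucocorticoid list rose and 1 fell, 5 and 0 of the interleukin-6 list, and 3 and 1 of the NRF2 list. The part of any of these responses in the metallothionein levels was not tested.

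**Figure D4:**
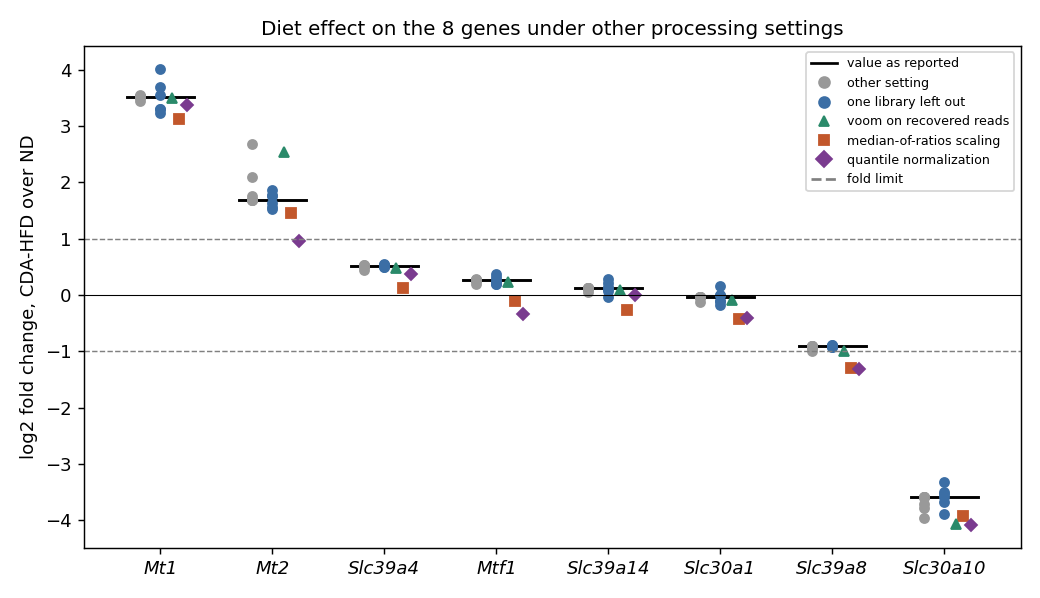
Log2 fold change of CDA-HFD over ND (y axis) for each of the 8 genes (x axis) as reported (black line) and under the other settings (points by kind), with the fold limit dashed. *Mt1* stays between 3.12 and 4.02 and *Slc30a10* between −4.08 and −3.32, while *Mtf1*, *Slc39a14* and *Slc30a1* fall on both sides of 0.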

How the data were processed

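Whole-liver RNA of 3 ND and 3 CDA-HFD mice was analysed. The authors deposited TPM in a single table of 6 columns. The submitters' processing notes name Trimmomatic 0.39.0, HISAT2 2.2.1 and featureCounts 2.0.1 on GRCm38 (mm10), and the study's methods describe removal of PCR duplicates. The annotation release and the strand setting are not given in the sources used here. TPM multiplied by the merged exon length of the GENCODE basic annotation, available for 53149 genes, fell on whole reads for 98.4% of values within 0.01. These reads served for depth, for exact intervals, for a floor of 3 reads and for voom.

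Diets were compared with limma 3.58.1 (R 4.3.3) on log2(TPM + 1) (diet as sole term, trended eBayes, two-sided tests) over genes whose mean reached 1 TPM. No scaling beyond TPM was applied. Between replicates the chi-square per gene of the reads was 11.3 to 14.3, more than sampling alone gives. On simulated reads for this comparison (14280 genes), 84% of the genes given a log2 change of size 1.5 were recovered, with 9 false calls. The simulation changed 50 genes at each size, with rises and falls in equal number and a fixed dispersion. In the real data 84.8% of calls were rises, and false calls under such an imbalance were not tested. The labels give no batch.

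The 8 genes and the lists were chosen with earlier results of these data known. The genes named were the 8, and in each list up to 2 rises and 2 falls or the most abundant member, plus the 5 most correlated genes of each metallothionein, leaving out predicted genes without a proper symbol. *Slc39a13*, *Slc39a10*, *Selenow*, *Ndrg1*, *Mt4*, *Ly6g*, *Spp1*, *Ttr*, *Serpina1a* and the overlapping genes were added with their values in view. So were *Hsd11b1*, *Nr3c1*, *Tat*, *Pck1*, *Dusp1*, *Tsc22d3*, *Il6*, *Orm1*, *Hp*, *Il6st*, *Saa1* and *Stat3*. The fit was repeated with other pseudocounts (0.1, 0.5), without a filter or with a minimum of 5 TPM, after median-of-ratios or quantile scaling, after removing the 50 genes of highest TPM, with robust or untrended eBayes, with a replicate block, with voom, and without each library.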

Additional observations from a re-analysis of the deposited data

How the results depend on the processing

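The 2 rises and 1 fall among the 8 genes were called in each fit with 1 library left out, and the fold changes then ranged from 3.23 to 4.02 for *Mt1*, 1.53 to 1.87 for *Mt2*, −3.89 to −3.32 for *Slc30a10* and −0.93 to −0.88 for *Slc39a8*. Over all alternatives adjusted p-values (limma) ran from 6.88e-06 to 0.00114 for *Mt1*, 0.00011 to 0.00681 for *Mt2* and 4.45e-07 to 0.000178 for *Slc30a10*. Of the 8 genes, 1 rose with a minimum mean of 5 TPM, which removes *Mt2*, and 1 with quantile normalization, and 2 fell with either scaling, *Slc39a8* being the second. Over all genes, 3115 rose and 558 fell; 1914 rose with the minimum of 5 TPM and 1718 with quantile normalization, and 1033 fell with median-of-ratios and 1201 with quantile scaling. Rises made up 84.8% of calls, 69.0% with median-of-ratios and 58.9% with quantile scaling, and the median of all genes moved from 0.32 to −0.04 and −0.11. With a library left out, 2912 to 3239 genes rose and 540 to 568 fell, *Slc39a14* ranged from −0.029 to 0.28 and *Slc30a1* from −0.17 to 0.17. *Mtf1* turned to −0.11 and −0.33 and *Slc39a14* to −0.27, as given above. The cause of these shifts was not tested.

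Same-numbered libraries correlated at 0.0862, 0.0387 and 0.0893 in their deviations, so the numbers were not taken as pairs; each library correlated best with its own number, a hint from the data only. With the replicate block the adjusted p of *Mtf1* was 0.0467 at an unchanged 0.26, still under the fold limit, and 2 of the 8 genes rose and 1 fell, and 3128 and 559 of all genes. Depth limits *Mt2*, with 7 reads over the ND libraries, and *Mt3* and *Mt4*.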

Other observations

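*Gm2061*, the antisense gene that shares exon bases with *Slc30a10*, was at 1.76, 0.869 and 1.77 TPM in the ND livers and about 0.05 TPM in each CDA-HFD liver. *Slc30a1* shares 468 of its 5244 exon bases (8.92%) with *1700034H15Rik*, and *Mtf1* shares 316 of 7975 (3.96%) with *1110065P20Rik* on the opposite strand, which was at 16.8, 14.3 and 17.8 TPM in ND and 9.12, 6.87 and 10.7 TPM in CDA-HFD. *Slc39a4*, *Slc39a8* and *Slc39a14* share none.

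Recovered reads per exon base reached 3.78 for *Mt1* and 93.1 to 105 for *Alb*, above the 2 start positions that a base offers to single-end reads, 1 per strand, although duplicate removal is described for the study's bulk RNA-seq.

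*Slc7a11*, the cystine importer among the NRF2 genes, had 1 read in ND and 674 reads in CDA-HFD. Corrected for depth the ratio was 579 with an exact 95% interval from 104 to 22910, which rests on that 1 read, takes reads as separate molecules and covers counting error only.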
